A study of Homo sapiens with 2 samples.

Results

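The genes described here are 42 genes of homologous recombination, the Fanconi anemia pathway, the double-strand break checkpoint and end joining. They were chosen by gene symbol from the 13219 genes listed in at least 1 of the 2 expression tables, and each of the 42 was listed once in both. The tables come from RNA sequencing of a human breast cell line that the labels call 231, a usual short name for the MDA-MB-231 breast cancer line. In the siYBX1 group, YBX1 was knocked down by transfection of a silencing reagent against it, and the siNC group carries the control label. There was a single library (n = 1) of either kind, collected at 48 h from cells grown in L15 medium with serum, so no difference has a replicate check and overlap between groups cannot be judged. YBX1 encodes YB-1, a cold shock domain protein that binds DNA and RNA.

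A double-strand break can be repaired along several routes. In homologous recombination the ends are cut back to single strands, BRCA2 prepares them for pairing, and the sister chromatid serves as template, which ties the route to S and G2 phase. The Fanconi proteins unhook crosslinks between the DNA strands and hand the break to recombination, while Ku and DNA-PK hold unprocessed ends for direct joining throughout the cell cycle. In breast tissue this pathway is best known for BRCA1, BRCA2 and PALB2, whose inherited loss raises the risk of breast cancer.

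The values were FPKM, fragments scaled to transcript length and library size, and without counts the depth is unknown. YBX1 itself (ENSG00000065978.18_3) stood at 38.1 FPKM with siYBX1, against 649 FPKM with siNC, so the target gene was 17.03-fold lower in the library labelled as knockdown. All 7 markers listed for the line, among them VIM, CD44 and KRT18, were present in both libraries, with KRT8 lower at 27.7 FPKM with siYBX1 against 74.7 FPKM with siNC (-1.40) and the other 6 within 2-fold. Of 5 luminal markers, the receptors ESR1 and PGR were in neither table, and FOXA1 was listed only with siNC, at 0.164 FPKM. The other luminal markers were in both. KRT7 stood at 55.1 FPKM with siYBX1 against 61.8 FPKM with siNC. GATA3 stood at 2.14 FPKM in siYBX1 cells and 2.34 FPKM in siNC cells. Of 6 hepatocyte markers, 1 was listed with siYBX1 and 5 with siNC, with summed levels of 39.96 and 42.6 FPKM. SERPINA1 stood at 39.96 FPKM in siYBX1 cells and 16.98 FPKM in siNC cells. FGB and ALB, at 12.0 and 10.4 FPKM with siNC, were not listed with siYBX1, and TTR was in neither. The immune, endothelial and fibroblast markers PTPRC, CD3E, PECAM1, CDH5, VWF, DCN and LUM were in neither table, while CD68 stood at 17.4 FPKM with siYBX1 against 39.4 FPKM with siNC and COL1A1 at 3.67 FPKM in siYBX1 cells and 0.351 FPKM in siNC cells. The part of these cell types in the repair gene values was not tested. In bulk RNA, fewer cells of a kind and less RNA per cell cannot be told apart.

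By level, the 42 genes covered a wide range in both libraries. The lowest, median and highest were 0.606, 4.81 and 145 FPKM with siYBX1, against 0.264, 5.27 and 123 FPKM with siNC. XRCC6, XRCC5 and PRKDC, the end-joining genes for both Ku subunits and the DNA-PK catalytic subunit, held the first 3 places in either library. In all, 37 genes lay between 1 and 15 FPKM with siYBX1 and 36 with siNC. RAD51B, which acts in strand pairing, was lowest in both. Among the breast cancer genes, BRCA2 ranked 37 of 42 by level with siYBX1 and 23 with siNC, while BRCA1 ranked 28 and 33.

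**Figure D1:**
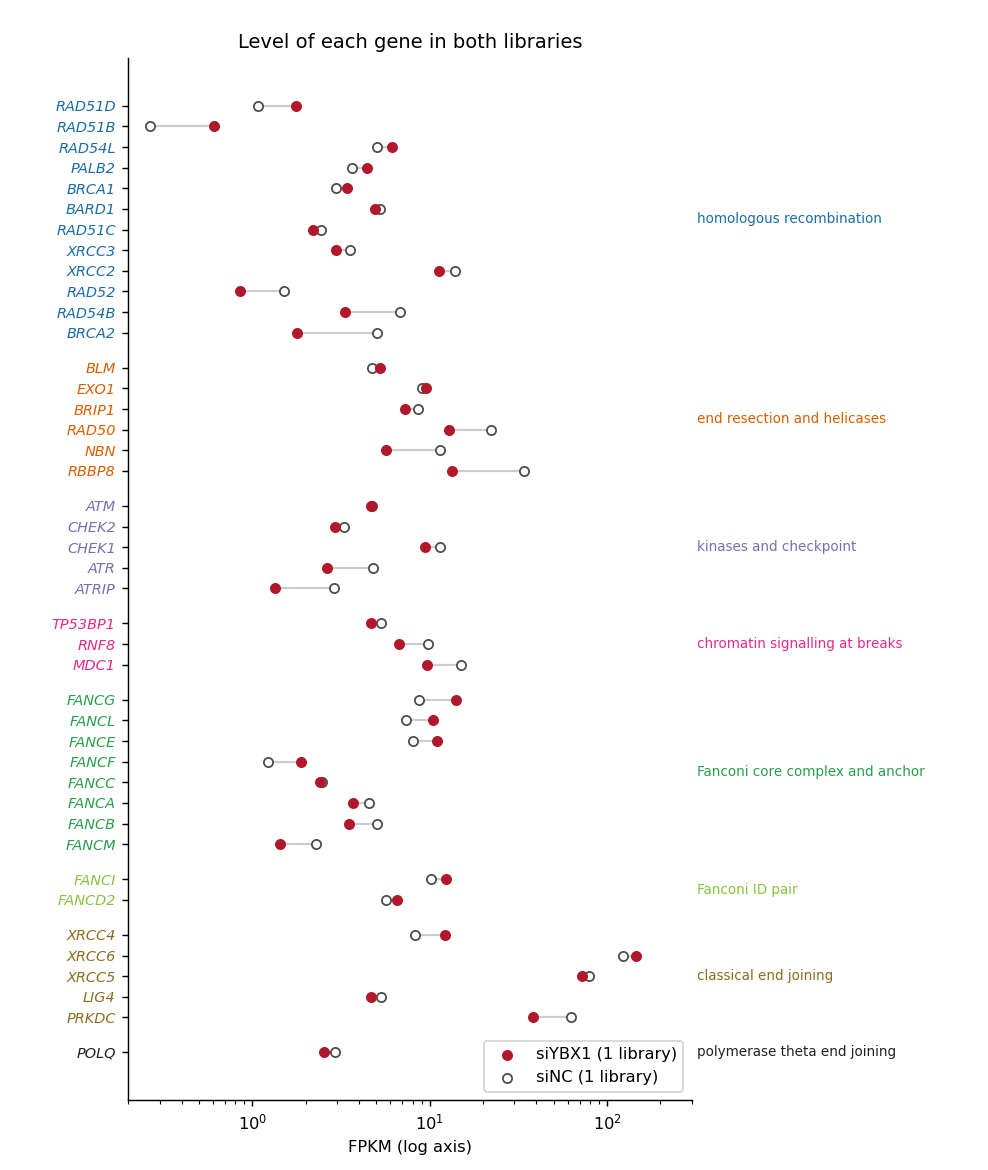
FPKM on a log axis for each of the 42 genes, sorted by role, with filled points for the siYBX1 library and open points for the siNC library (1 library each, so no error bars). The Ku and DNA-PK genes lie farthest right, and the longest gaps to the left run to BRCA2 (1.78 FPKM with siYBX1 against 5.05 FPKM with siNC) and RBBP8 (13.4 FPKM in siYBX1 cells and 33.9 FPKM in siNC cells).

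Differences are siYBX1 minus siNC in log2(FPKM + 1). They were formed where the 2 values averaged 1 FPKM or more, which kept 41 of the 42 genes and left out RAD51B. With a cutoff of 1, or 2-fold, 2 of the 41 genes were lower, RBBP8 and BRCA2, and 0 were higher. Across all 10548 compared genes 5.62% were lower and 7.20% higher by this measure, so 2 of 41 lower (4.88%) is close to the background. In the plain FPKM ratio, without the pseudocount that damps low genes, 5 were at least 2-fold lower (BRCA2, RBBP8, ATRIP, NBN and RAD54B), beside 9.15% of all genes, and 0 were at least 2-fold higher, beside 10.9%. At 1.5-fold, 11 were lower, beside 20.5% of all genes, and 3 were higher (FANCG, RAD51D and FANCF), beside 22.5%. The median difference of the 41 genes was -0.14, beside 0.02 for all compared genes, with 27 below 0 and 14 above. Of all compared genes, 5165 were below 0 and 5383 above. When the summed FPKM of the libraries was made equal, 3 of the 41 were at least 2-fold lower, NBN being added, and over all genes 570 were higher and 822 lower, against 759 and 593 as deposited. The differences of the 41 genes as deposited spanned -1.27 to 0.64.

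**Figure D2:**
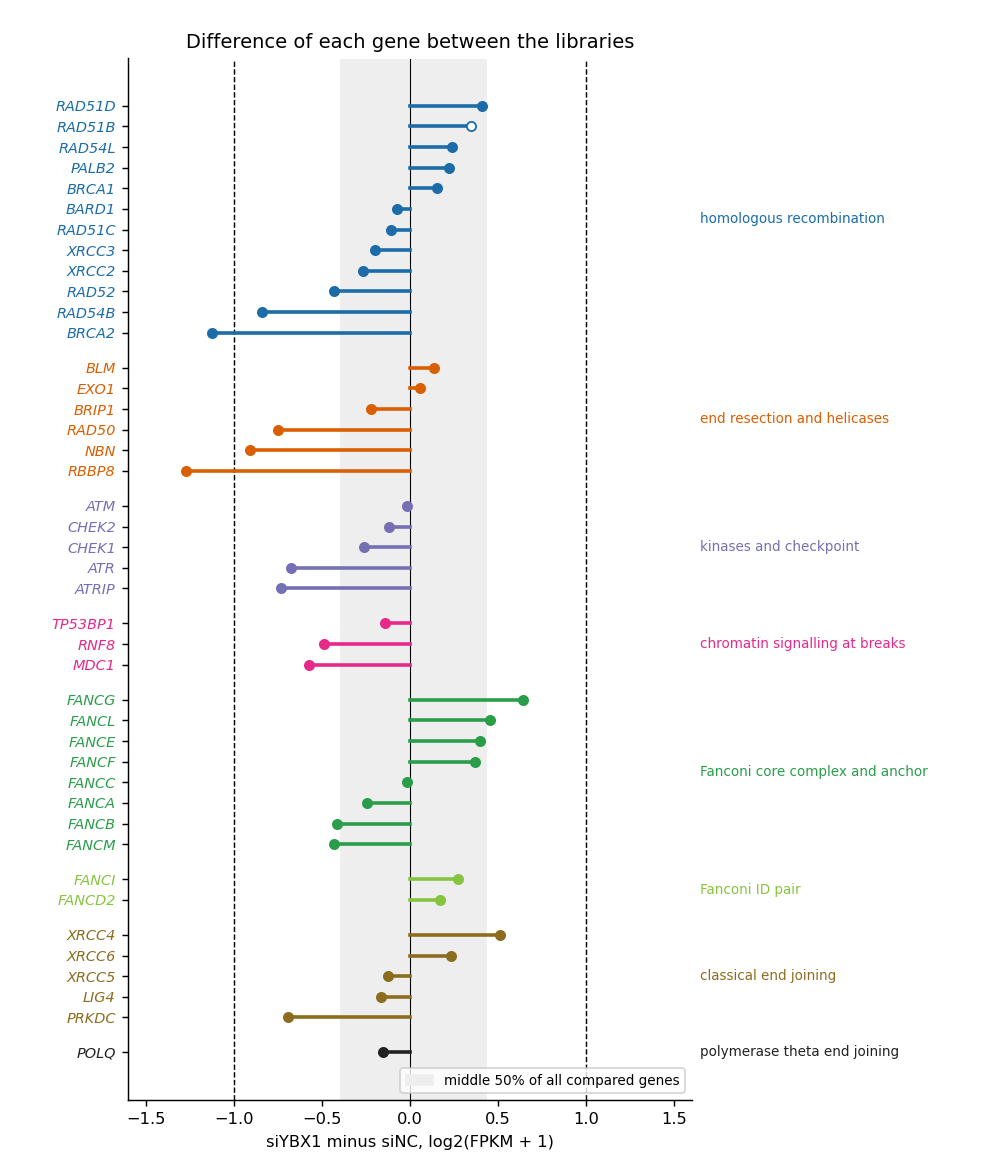
Difference siYBX1 minus siNC in log2(FPKM + 1) for each gene, coloured and grouped by role. The grey band is the middle 50% of all compared genes, dashed lines mark 2-fold, and the open point is RAD51B, whose mean is under 1 FPKM. RBBP8 (-1.27) and BRCA2 (-1.12) lie past the lower line, and no gene lies past the upper one.

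YB-1 was named for binding the Y-box, an inverted CCAAT element of promoters, so promoter letters were read for the 37 genes with an entry in the RefSeq promoter table (GRCh38.p14). RAD54B, NBN, FANCI, XRCC5 and PRKDC had none. Windows ran from 250 bases before to 50 bases after each annotated start, both strands were searched, genes with several starts have several windows, and no motif contains another. The upstream 250 bases are shown for the 2 genes past 2-fold and for ATRIP, which had the lowest difference among genes with a CCAAT. Capitals mark ATTGG, the CCAAT of the other strand, and the GC box GGGCGG or its reverse complement CCGCCC.
RBBP8 promoter, chr18:22933078-22933327, plus strand: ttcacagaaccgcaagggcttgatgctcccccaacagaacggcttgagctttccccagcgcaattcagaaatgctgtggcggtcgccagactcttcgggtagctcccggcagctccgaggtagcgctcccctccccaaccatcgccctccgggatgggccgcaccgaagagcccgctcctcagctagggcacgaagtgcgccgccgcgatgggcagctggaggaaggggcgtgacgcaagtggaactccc
BRCA2 promoter, chr13:32315258-32315507, plus strand: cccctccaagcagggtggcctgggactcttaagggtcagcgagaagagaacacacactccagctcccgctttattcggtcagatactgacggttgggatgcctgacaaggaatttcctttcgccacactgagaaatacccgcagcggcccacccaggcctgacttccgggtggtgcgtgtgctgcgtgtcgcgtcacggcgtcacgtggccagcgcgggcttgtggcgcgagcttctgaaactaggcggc
ATRIP promoter, chr3:48446487-48446736, plus strand: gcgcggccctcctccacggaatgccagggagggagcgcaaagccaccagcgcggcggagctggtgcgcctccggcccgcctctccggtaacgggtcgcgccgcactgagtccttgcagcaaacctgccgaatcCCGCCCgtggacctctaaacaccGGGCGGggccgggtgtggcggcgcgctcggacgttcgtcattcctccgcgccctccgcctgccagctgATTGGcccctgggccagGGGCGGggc
For RBBP8 and ATRIP the window of the more upstream of 2 starts is printed. ATRIP has ATTGG with its first base 26 bases before the start, and 3 GC boxes, while the printed stretches of RBBP8 and BRCA2 hold none of the motifs searched. A GC box of RBBP8 lies elsewhere in its 2 windows.

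CCAAT or ATTGG was found in 25 of 54 windows of these genes (46.3%), beside 34.6% of all 35116 windows in the table, and in at least 1 window of 19 genes. Those 19 genes, BRCA1, PALB2, ATM and MDC1 among them, had a median difference of -0.14. On the log2(FPKM + 1) scale 0 of them were at least 2-fold lower, but in the plain FPKM ratio ATRIP was 2.16-fold lower. The 17 compared genes without CCAAT or ATTGG had a median of -0.11, with both genes past 2-fold on the log2(FPKM + 1) scale among them. The GC box was in 66.7% of the windows, beside 45.0% of all. At least 1 of the E2F letters TTTCGCGC, TTTGGCGC and TTTCCCGC was in 5 windows (9.26%, beside 2.74% of all), those of EXO1, FANCC, FANCD2, XRCC2 and XRCC6. TTTGAA, the cell cycle homology region, was in 9.26%, beside 15.2% of all. These matches describe the letters only.

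Among the recombination genes, BRCA2 (ENSG00000139618.14_3), which acts on resected DNA, was listed at 1.78 FPKM with siYBX1 and at 5.05 FPKM with siNC. It was 2.84-fold lower with siYBX1, a log2 difference of -1.12, and 3.86% of all compared genes had a difference that low or lower. Its partners lay nearer to 0. PALB2, which bridges BRCA1 and BRCA2, stood at 4.43 FPKM with siYBX1 against 3.66 FPKM with siNC (0.22). BRCA1 stood at 3.40 FPKM in siYBX1 cells and 2.95 FPKM in siNC cells (0.16), and BARD1, its partner in a ubiquitin ligase, at 4.94 FPKM with siYBX1 against 5.26 FPKM with siNC (-0.08, and 0.11 once the trend with transcript length and GC content was removed).

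The recombination accessory genes differed among themselves. RAD54B, a DNA translocase, stood at 3.34 FPKM with siYBX1, against 6.77 FPKM with siNC (-0.84). Its relative RAD54L stood at 6.13 FPKM in siYBX1 cells and 5.04 FPKM in siNC cells (0.24). RAD54B overlaps FSBP on the same strand, which stood at 3.33 FPKM with siYBX1 against 4.18 FPKM with siNC, so reads of this pair may have been divided between them. RAD52, a strand-annealing protein, was low in both libraries, at 0.854 FPKM in siYBX1 cells and 1.502 FPKM in siNC cells (-0.43).

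The genes RAD51B, RAD51C, RAD51D, XRCC2 and XRCC3, whose products act together in recombination, lay on both sides of 0. RAD51D was at 1.76 FPKM with siYBX1 against 1.08 FPKM with siNC (0.41), RAD51C at 2.19 FPKM in siYBX1 cells and 2.44 FPKM in siNC cells (-0.11) and RAD51B at 0.606 FPKM with siYBX1 against 0.264 FPKM with siNC, below the filter. XRCC2 was the most abundant of them, at 11.3 FPKM in siYBX1 cells and 13.9 FPKM in siNC cells (-0.27), and XRCC3 stood at 2.97 FPKM with siYBX1 against 3.57 FPKM with siNC (-0.20). The 11 compared recombination genes had a median difference of -0.11, with 7 below 0 and 4 above.

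End resection held the lowest difference on the log2(FPKM + 1) scale, while in the plain ratio BRCA2 was lower. RBBP8 (ENSG00000101773.18_3) encodes CtIP, which starts resection together with the MRE11-RAD50-NBN complex, and was listed at 13.4 FPKM with siYBX1, against 33.9 FPKM with siNC. It was 2.52-fold lower with siYBX1, a log2 difference of -1.27, with 2.42% of all compared genes that low or lower. Its siNC level was the fourth highest of the 42 genes.

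The 3 genes of the complex that CtIP works with were all on the same side. NBN, which recruits ATM to breaks, stood at 5.64 FPKM in siYBX1 cells and 11.5 FPKM in siNC cells (-0.91). RAD50, the coiled-coil ATPase, stood at 12.8 FPKM with siYBX1 against 22.2 FPKM with siNC (-0.75). The nuclease MRE11 stood at 8.62 FPKM in siYBX1 cells and 11.2 FPKM in siNC cells (-0.35, and -0.11 with the length and GC trend removed). None of the 3 reached 2-fold on the log2(FPKM + 1) scale. NBN overlaps DECR1 on the opposite strand, and DECR1 was at 9.33 FPKM with siYBX1 against 5.54 FPKM with siNC. How strand was handled is not given in the sources used here, so reads from such pairs cannot be told apart.

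The nuclease and helicases that extend resection or resolve its products differed little. EXO1, a long-range resection nuclease, stood at 9.52 FPKM in siYBX1 cells and 9.10 FPKM in siNC cells (0.06, and -0.07 when the summed FPKM was made equal). The helicase BLM stood at 5.26 FPKM with siYBX1 against 4.70 FPKM with siNC (0.13), and BRIP1, the BRCA1-bound helicase, at 7.23 FPKM in siYBX1 cells and 8.61 FPKM in siNC cells (-0.22). Over all 6 genes of this role the median difference was -0.49, which became -0.26 once the trend with length and GC content was taken out and -0.75 among genes averaging 5 FPKM or more.

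All 5 kinase and checkpoint genes were below 0, beside 5165 of all 10548 compared genes, with a median of -0.26. None reached 2-fold on the log2(FPKM + 1) scale, while ATRIP was 2.16-fold lower in the plain FPKM ratio. ATRIP, which brings ATR to single-stranded DNA, was listed at 1.33 FPKM with siYBX1, against 2.88 FPKM with siNC (-0.73). ATR stood at 2.63 FPKM with siYBX1 against 4.81 FPKM with siNC (-0.68), so both genes of this kinase pair were below 0. ATRIP overlaps the nuclease gene TREX1 on the same strand, and TREX1 stood at 1.58 FPKM in siYBX1 cells and 1.03 FPKM in siNC cells. The break kinase ATM was nearly level, at 4.66 FPKM with siYBX1 against 4.73 FPKM with siNC (-0.02, and 0.40 once the trend with transcript length and GC content was removed). The effector kinase CHEK1 stood at 9.41 FPKM in siYBX1 cells and 11.5 FPKM in siNC cells (-0.26). CHEK1 overlaps STT3A on the same strand, and STT3A was at 35.9 FPKM with siYBX1 against 30.0 FPKM with siNC. CHEK2 stood at 2.94 FPKM with siYBX1 against 3.28 FPKM with siNC (-0.12).

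The 3 chromatin genes that mark breaks and recruit repair proteins were also below 0. MDC1, the scaffold that binds phosphorylated histone H2AX, stood at 9.70 FPKM in siYBX1 cells and 14.95 FPKM in siNC cells (-0.58). The ubiquitin ligase RNF8 stood at 6.72 FPKM with siYBX1 against 9.81 FPKM with siNC (-0.49). TP53BP1, whose product 53BP1 holds back resection, stood at 4.69 FPKM in siYBX1 cells and 5.28 FPKM in siNC cells (-0.14, and 0.12 with that trend removed).

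The Fanconi core complex, which attaches ubiquitin to FANCD2 and FANCI, divided evenly, with 4 genes above 0, 4 below and a median of 0.17. FANCG had the largest positive difference of the 41 genes, at 14.1 FPKM with siYBX1 against 8.67 FPKM with siNC (0.64). FANCL, the catalytic ubiquitin ligase subunit, stood at 10.4 FPKM in siYBX1 cells and 7.34 FPKM in siNC cells (0.46), although VRK2, which overlaps it on the opposite strand, stood at 4.98 FPKM with siYBX1 against 10.5 FPKM with siNC. FANCE, which contacts FANCD2, was at 10.98 FPKM in siYBX1 cells and 8.08 FPKM in siNC cells (0.40) and FANCF, an adaptor, at 1.87 FPKM with siYBX1 against 1.22 FPKM with siNC (0.37).

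The other core genes were level or below. FANCM, the DNA translocase that anchors the complex, stood at 1.43 FPKM in siYBX1 cells and 2.28 FPKM in siNC cells (-0.43). FANCB stood at 3.52 FPKM with siYBX1 against 5.01 FPKM with siNC (-0.41), FANCA at 3.68 FPKM in siYBX1 cells and 4.54 FPKM in siNC cells (-0.24) and FANCC at 2.41 FPKM with siYBX1 against 2.46 FPKM with siNC (-0.02). FANCB forms a subcomplex with FANCL and FAAP100, which stood at 6.44 FPKM in siYBX1 cells and 2.78 FPKM in siNC cells (0.98), and FANCA pairs with FANCG, so these partners lay on opposite sides of 0. Both substrates of the complex were slightly above 0: FANCD2 stood at 6.55 FPKM with siYBX1 against 5.70 FPKM with siNC (0.17) and FANCI at 12.4 FPKM in siYBX1 cells and 10.1 FPKM in siNC cells (0.27).

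In classical end joining, XRCC6 and XRCC5, which encode the Ku70 and Ku80 subunits of the end-binding ring, were the most abundant genes of all 42 and nearly level. XRCC6 stood at 145 FPKM with siYBX1 against 123 FPKM with siNC (0.23) and XRCC5 at 72.7 FPKM in siYBX1 cells and 79.5 FPKM in siNC cells (-0.13). PRKDC, the catalytic subunit that Ku recruits, stood at 38.1 FPKM with siYBX1 against 62.3 FPKM with siNC (-0.70, and -0.34 with the length and GC trend removed). XRCC4, the scaffold of the ligation step, stood at 12.3 FPKM in siYBX1 cells and 8.31 FPKM in siNC cells (0.51). TMEM167A, which overlaps XRCC4 on the opposite strand, stood at 26.6 FPKM with siYBX1 against 18.5 FPKM with siNC. LIG4, the ligase partner of XRCC4, stood at 4.64 FPKM in siYBX1 cells and 5.33 FPKM in siNC cells (-0.17). No end-joining gene reached 2-fold. POLQ, the polymerase of the mutagenic backup route, stood at 2.52 FPKM with siYBX1 against 2.91 FPKM with siNC (-0.15, and 0.14 with that trend removed).

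Transcript length moved with the differences. The 10474 compared genes with a known length were put in 10 bins of near-equal number. The bin of shortest transcripts had a median difference of 0.22 and that of longest transcripts -0.23, with Spearman's rho of -0.20 across genes, which are not independent replicates. Across the 41 repair genes rho was -0.37, and they were long, with a median of 4580 bases beside 3407 for all. The longest bin, from 7439 bases up, held 9 of them with a median of -0.58: ATM, ATR, BRCA2, MDC1, POLQ, PRKDC, RAD50, RAD51D and TP53BP1. ATM and PRKDC, with the longest transcripts of the list at 13147 and 13509 bases, differed from each other, at -0.02 and -0.70.

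With the trend on length and GC content removed, the median of the 41 genes was -0.05, beside 0.03 for all. RBBP8, whose transcript has 3293 bases, then stood at -1.18, and BRCA2, with 11986 bases, at -0.74, short of 2-fold. ATRIP, NBN and RAD54B stood at -0.77, -0.76 and -0.75. ATR stood at -0.40, RAD50 at -0.49 and RAD51D at 0.64. RBBP8 was past 2-fold in all 10 alternative settings, and BRCA2 in 7 of the 9 that kept it. Some of these settings could not change either value: a changed filter, missing genes taken as 0 and summed rows of a shared symbol.

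**Figure D3:**
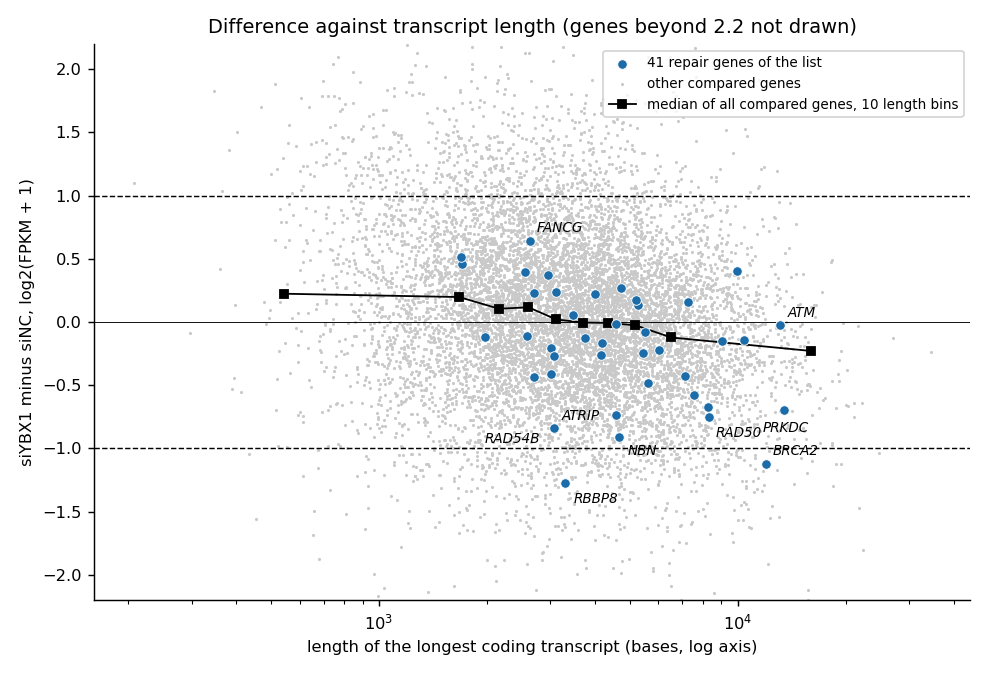
Difference siYBX1 minus siNC in log2(FPKM + 1) against the length of each gene's longest coding transcript in bases (log axis). Blue points are the 41 repair genes, grey points all other compared genes, black squares the medians of 10 length bins, and dashed lines mark 2-fold. The bin medians run from 0.22 for the shortest to -0.23 for the longest transcripts, and RBBP8 lies well below its bin.

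A list of 60 further break repair genes was described beside these, and 58 of them could be compared. At least 2-fold, 2 were higher and 4 lower with siYBX1, beside the 7.20% and 5.62% of all genes, and their median difference was -0.14. CLSPN encodes claspin, the adaptor through which ATR activates CHEK1, and stood at 14.1 FPKM in siYBX1 cells and 55.0 FPKM in siNC cells (-1.89). BRCC3, the deubiquitinase of the BRCA1-A complex, stood at 6.59 FPKM with siYBX1 against 25.9 FPKM with siNC (-1.82). The other subunits of that complex stood at 7.96 FPKM in siYBX1 cells and 11.3 FPKM in siNC cells for UIMC1, 2.92 FPKM with siYBX1 against 3.38 FPKM with siNC for ABRAXAS1, 30.7 FPKM in siYBX1 cells and 26.6 FPKM in siNC cells for BABAM1 and 7.97 FPKM with siYBX1 against 3.96 FPKM with siNC for BABAM2, so the difference of BRCC3 was larger than theirs.

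SMC6, of the SMC5-SMC6 complex, was at 7.33 FPKM in siYBX1 cells and 18.5 FPKM in siNC cells (-1.23), and SMC5 at 14.5 FPKM with siYBX1 against 27.2 FPKM with siNC (-0.86), so SMC6 passed 2-fold and SMC5 did not. SLX4, a scaffold for nucleases that acts in the Fanconi pathway, stood at 2.19 FPKM in siYBX1 cells and 5.55 FPKM in siNC cells (-1.04). The 2 higher genes were SFR1, a recombination accessory gene, at 11.1 FPKM with siYBX1 against 3.75 FPKM with siNC (1.35), and RMI2, which acts with BLM, at 5.05 FPKM in siYBX1 cells and 1.88 FPKM in siNC cells (1.07).

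Other repair pathways gave values on both sides, to be read beside the 7.20% higher and 5.62% lower of all genes. Mismatch repair had 0 of 7 genes past 2-fold and a median of -0.39, which was -0.18 with the length and GC trend removed. In base excision repair 1 of 15 was higher (6.67%) and 2 were lower (13.3%), and the median was -0.04. The glycosylase gene MPG stood at 18.8 FPKM with siYBX1 against 8.35 FPKM with siNC, NEIL3 at 3.48 FPKM in siYBX1 cells and 10.6 FPKM in siNC cells and the ligase gene LIG1 at 7.71 FPKM with siYBX1 against 17.4 FPKM with siNC. In nucleotide excision repair 1 of 20 was higher, GTF2H4, a TFIIH subunit, at 9.67 FPKM in siYBX1 cells and 3.06 FPKM in siNC cells. None was lower there, and the median was 0.15.

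Because recombination genes are expressed most in S and G2 phase, 28 proliferation genes were set beside them. They had 0 higher and 2 lower, beside 7.20% and 5.62% of all genes, and a median of -0.13, next to -0.14 for the repair genes. At the same total both medians were -0.27. With the length and GC trend removed they parted, at -0.16 for the proliferation genes and -0.05 for the repair genes. Of the 28 proliferation genes, 17 were below 0 and 11 above. The 2 lower genes were FOXM1 and AURKA. FOXM1, a mitotic transcription factor, stood at 9.44 FPKM with siYBX1 against 30.4 FPKM with siNC (-1.59). The kinase AURKA stood at 34.1 FPKM in siYBX1 cells and 79.6 FPKM in siNC cells (-1.20). MKI67 stood at 37.7 FPKM with siYBX1 against 34.1 FPKM with siNC and the sliding clamp PCNA at 122 FPKM in siYBX1 cells and 86.8 FPKM in siNC cells. The part of cell cycle phase in the repair gene values was not tested.

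**Figure D4:**
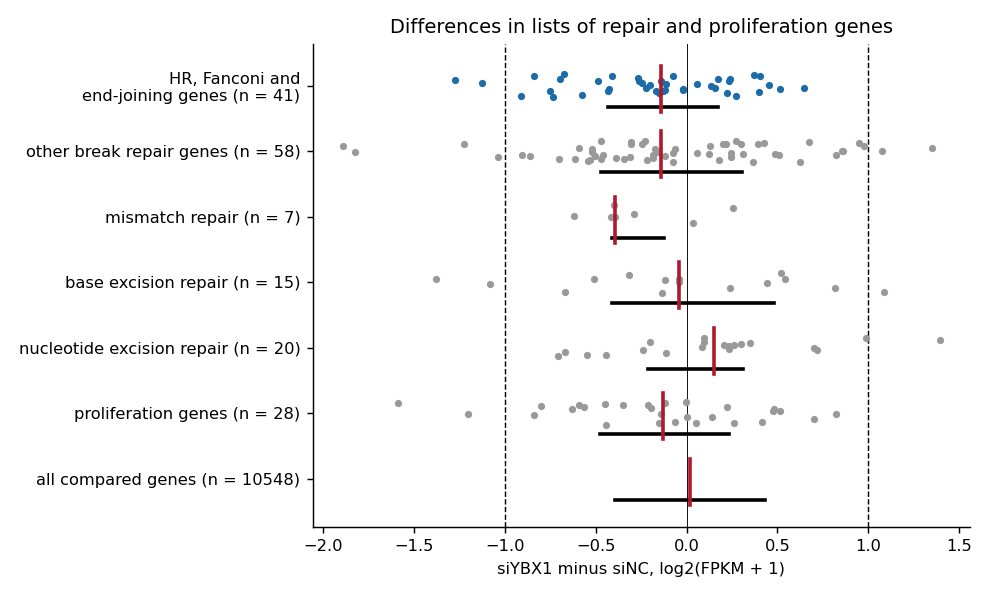
Difference siYBX1 minus siNC in log2(FPKM + 1) for the genes of each list, 1 point per gene (vertical scatter is for display). Red ticks are medians, black bars the middle 50% of each list, dashed lines mark 2-fold, and all compared genes are drawn without points. The medians of the repair genes (-0.14), the further break repair genes (-0.14) and the proliferation genes (-0.13) lie just below that of all genes (0.02).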

How the data were processed

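Total RNA was extracted with Trizol and sequenced, per the labels' protocols. The authors deposited 1 table per library with gene identifiers, symbols and FPKM values, per the file headers. StringTie 1.3.3, HISAT2 2.1.0, cutadapt 1.17 and build GRCh37 appear, with no roles, in the submitters' processing notes. The sources used here do not give the annotation release, the use of strand or the rule for listing a gene. There are 11678 genes listed for siYBX1 and 13017 for siNC, with 11476 in both.

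Differences were computed as log2(FPKM + 1), siYBX1 minus siNC, for genes in both tables that averaged 1 FPKM or more. A difference of 1 (2-fold) counted as higher or lower. Differences of low genes are understated on this scale. Since either group is 1 library, no test was possible, and no p-value is given. FPKM without counts gives no counting interval. Genes were matched by symbol, or an older symbol, in Python 3.11.15. The members and lists were chosen with earlier results of these data known. All 42 genes are named, and of the other lists at most 6 genes past 2-fold, with partners in their complexes, markers, overlapping genes, MKI67 and PCNA added after their values were seen. Lengths and GC content were those of the longest coding transcript in GENCODE 29 (GRCh38), which need not be the one expressed. The trend was fitted with B-splines of 5 degrees of freedom each. By that annotation 14 of the 42 genes overlap another listed gene, 4 on the same strand and 10 on the opposite one. The scripts were tested on simulated data.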

Additional observations from a re-analysis of the deposited data

How the results depend on the processing

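Of the 41 compared genes, 36 kept the sign of their difference in each of the 10 alternatives that kept them (23 below 0 and 13 above). ATM, BARD1, EXO1, POLQ and TP53BP1 did not. The alternatives that changed the filter, took missing genes as 0 or summed rows of a shared symbol left these genes' values unchanged. Their signs could not turn there, nor with another pseudocount, which changes the size of a difference but not its sign. Only centring, scaling and removal of the length and GC trend could turn a sign. The count of 2 genes at least 2-fold lower became 4 with a pseudocount of 0.1 FPKM (ATRIP and NBN added). It became 1 with a pseudocount of 5 FPKM, 1 among genes averaging 5 FPKM or more, where fewer genes are compared, and 1 with the length and GC trend removed, RBBP8 each time. No gene of the 41 was at least 2-fold higher in any of them. Scaling to the same total moved the median of all genes by -0.12, to -0.11, and that of the 41 genes to -0.27. Centred on all genes, it was -0.16. Over all genes, 759 were higher and 593 lower as deposited, and 570 and 822 at the same total. With a pseudocount of 0.1 FPKM these were 1097 and 925, and with 5 FPKM 314 and 209.

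Among the further break repair genes, the 2 higher became 4 with a pseudocount of 0.1 FPKM, 0 with 5 FPKM, 1 among genes averaging 5 FPKM or more and 1 at the same total. The 4 lower became 6 at the same total, 5 with a pseudocount of 0.1 FPKM, 3 with the trend removed, 3 among genes averaging 5 FPKM or more and 2 with a pseudocount of 5 FPKM. In base excision repair the 1 higher became 0 with the trend removed, a pseudocount of 5 FPKM or the same total, the 2 lower became 0 with 5 FPKM, and the median lay between -0.27 and -0.03. In nucleotide excision repair the 1 higher became 2 with the trend removed or a pseudocount of 0.1 FPKM and 0 with 5 FPKM. The median of the Fanconi core genes lay between 0.07 and 0.46. Where not stated, the cause was not tested. No paired analysis was possible because each group holds 1 library, and for the same reason no library could be left out. The depth is unknown, so genes near 1 FPKM, such as RAD52, FANCF and RAD51D, may carry large counting error.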

Other observations

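Some complexes of the further break repair genes, looked at after their values were seen, had all subunits on one side and others did not. The single-strand binding complex RPA was above 0 throughout, with RPA1 at 31.3 FPKM with siYBX1 against 22.1 FPKM with siNC, RPA2 at 53.7 FPKM in siYBX1 cells and 43.1 FPKM in siNC cells and RPA3 at 12.7 FPKM with siYBX1 against 7.91 FPKM with siNC. The checkpoint clamp was divided: RAD9A stood at 3.65 FPKM in siYBX1 cells and 2.54 FPKM in siNC cells and RAD1 at 5.08 FPKM with siYBX1 against 2.82 FPKM with siNC, while HUS1 stood at 4.37 FPKM in siYBX1 cells and 6.75 FPKM in siNC cells. Its loader subunit RAD17 stood at 11.5 FPKM with siYBX1 against 14.5 FPKM with siNC and the ATR activator TOPBP1 at 13.6 FPKM in siYBX1 cells and 19.2 FPKM in siNC cells. In the pathway that shields ends from resection, RIF1 stood at 8.22 FPKM with siYBX1 against 12.4 FPKM with siNC and MAD2L2 at 9.07 FPKM in siYBX1 cells and 15.4 FPKM in siNC cells. The shieldin gene SHLD2 stood at 13.1 FPKM with siYBX1 against 10.5 FPKM with siNC, and SHLD1 was listed only with siNC, at 0.461 FPKM. The ubiquitin ligase RNF168, which acts upstream of them, stood at 15.3 FPKM in siYBX1 cells and 7.47 FPKM in siNC cells. None of the compared genes among these was 2-fold apart on the log2(FPKM + 1) scale.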
